A study of Rattus norvegicus with 6 samples.

Results

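miR-221 and miR-222 are a pair of microRNAs (miRNAs) cut from neighbouring hairpins on the X chromosome. They were examined in small RNA libraries of the rat hypothalamic arcuate nucleus (ARC), which holds the neurons that make beta-endorphin. Every listed miRNA from a hairpin named miR-221 or miR-222, both arms included, was taken, which gave 4 of 562 mature miRNAs, listed as rno-miR-221-3p, rno-miR-221-5p, rno-miR-222-3p and rno-miR-222-5p and written without the prefix from here on. All 4 passed the filter on low values, a mean of at least 1 normalized count over the 6 libraries, as did 555 of the 562. All rats were Sprague-Dawley, 8 to 10 weeks old and, by the study's methods, male unless otherwise specified, and tissue was taken on Day 14 after surgery. The CCI-ION group carried a chronic constriction injury of the left infraorbital nerve, made with loose silk ligatures, and serves as a model of trigeminal neuropathic pain. In the sham group the same nerve was exposed on 1 side and not ligated. Each group had 3 libraries, whose values are given in the order of replicates 1, 2 and 3, and n counts libraries. The study gives more rats per group than there are libraries, and how rats were assigned to libraries is not stated in the sources used here, so a library may be a pool. The spread between libraries may be partly technical.

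A miRNA hairpin yields a 5p and a 3p strand, of which usually 1 is loaded into Argonaute as the guide and the other is degraded. The guide finds messenger RNAs through its seed, bases 2 to 8 from its 5′ end, so miRNAs with the same seed can bind the same sites. For both hairpins of this cluster the 3p strand is the known guide. The pair is best known from blood vessels and dividing cells, where it represses the cell cycle inhibitor Cdkn1b (p27) and the receptor Kit, and it is also made in neurons and glia and responds to injury of peripheral nerves.

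The sequences show how the members differ, and they were read from RefSeq (assembly GRCr8). The annotation holds both hairpins on the plus strand, Mir222 at chrX:6022621-6022723 and Mir221 at chrX:6023182-6023290, with 458 bases between them. The spans of 2 genes annotated as long noncoding RNA, LOC120099382 and LOC120099384, contain both. The submitters' processing notes name build rn6, and the deposited values carry no coordinates. Capitals mark the mature 5p arm and then the 3p arm in each hairpin.

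Mir222: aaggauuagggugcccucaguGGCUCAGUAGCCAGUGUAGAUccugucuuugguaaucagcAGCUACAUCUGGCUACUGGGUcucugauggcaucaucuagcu

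Mir221: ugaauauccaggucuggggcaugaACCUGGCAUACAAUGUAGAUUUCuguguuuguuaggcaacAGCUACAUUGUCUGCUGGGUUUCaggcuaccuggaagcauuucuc

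In the mature strands, capitals mark the seed.

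miR-221-3p: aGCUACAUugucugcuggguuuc

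miR-222-3p: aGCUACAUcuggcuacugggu

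miR-221-5p: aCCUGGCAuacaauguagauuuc

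miR-222-5p: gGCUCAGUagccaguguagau

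The 3p strands had the same first 8 bases, seed included, and then differed, at 10 of the 21 positions compared, so a full-length read can be given to 1 of them. Among the 512 listed miRNAs with a sequence in the RefSeq table, only these 2 carried the seed GCUACAU. The 5p strands had different seeds, and no other miRNA with a sequence in the table had either of them.

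In the normalized counts, in which each library's reads are scaled by its size factor, the guide strands were lower in CCI-ION rats and the 5p strand of miR-221 was not. miR-221-3p fell from a sham mean of 18916 ± 533 normalized counts to a CCI-ION mean of 10839 ± 751 (SD, n = 3 each). The means of its partner miR-222-3p were 17005 ± 1464 (sham) and 11502 ± 1281 (CCI-ION), a difference that missed the threshold. Those of miR-221-5p were 733 ± 19.2 (sham) and 849.8 ± 50.2 (CCI-ION), which missed it too. Within the miR-221 hairpin the share of reads from the 5p arm rose from 3.73% ± 0.156 to 7.28% ± 0.491 (SD, n = 3 each). The libraries held between 8628309 and 14313839 reads, with sham totals of 11115049 or more and CCI-ION totals of 11297551 or less.

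In the sham libraries miR-221-3p stood at 18365, 19429 and 18953 normalized counts, which came from 16069, 23368 and 22486 reads. In the CCI-ION libraries it stood at 10735, 11636 and 10145, which came from 11538, 9556 and 9424 reads. The sham libraries lay close together and each was far above every CCI-ION library. Its log2 fold change (CCI-ION against sham, of normalized count + 1) was -0.81 (standard error 0.11, 95% interval -1.07 to -0.54, limma, adjusted p = 0.0208 by the Benjamini-Hochberg method over all 555 miRNAs). In this test 6.85% of all miRNAs passed the threshold of 0.05 in either direction and 3.42% passed it as lower. By size its fall ranked 68 among the miRNAs tested, and by p it ranked 11. Of the 63 miRNAs at least as abundant as miR-222-3p, 3 passed as lower, miR-221-3p among them. The call was lost in 4 of the 6 fits with a library left out. Without sham replicate 1, 2 or 3 its adjusted p was 0.0679, 0.0924 and 0.0873, and without CCI-ION replicate 3 it was 0.0573 (limma), with log2 fold changes between -0.83 and -0.76. Each such fit rests on 5 libraries, and calls over all miRNAs went from 38 to 9, 11, 7 and 11 in them.

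The sham libraries gave 15656, 18561 and 16797 normalized counts of miR-222-3p, and the CCI-ION libraries gave 10960, 12964 and 10581. Every CCI-ION library again lay below every sham library, with a wider spread inside each group than for miR-221-3p. The log2 fold change was -0.57 (standard error 0.14, 95% interval -0.90 to -0.23, unadjusted p = 0.00679, adjusted p = 0.0649 from limma). It passed under 5 of the 17 other ways of processing, among them the library left out as CCI-ION replicate 2 (limma, log2 fold change -0.66, adjusted p = 0.0498). With total counts the log2 fold change was -0.36 (limma, adjusted p = 0.163).

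miR-221-5p, the strand that pairs with miR-221-3p in the hairpin, reached 747.4, 740.8 and 711 normalized counts in the sham libraries (654 to 891 reads). In the CCI-ION libraries it reached 795, 893 and 862 (733 to 854 reads). All CCI-ION libraries were higher than the sham libraries, by a small margin. The log2 fold change was 0.21 (standard error 0.11, 95% interval -0.05 to 0.47, adjusted p = 0.212 from limma). It was -0.04 with upper-quartile scaling and 0.41 with total counts (adjusted p = 0.0784, limma). In 40.7% of all miRNAs tested the groups did not overlap in either direction, so this pattern, found in 3 of the 4 members, is common in these libraries.

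miR-222-5p was close to the limit of 5 reads, the smallest number above 0 in the files. The sham libraries held 6, 17 and 15 of its reads (6.86, 14.1 and 12.6 normalized counts), and the CCI-ION libraries 12, 11 and 9 (11.2, 13.4 and 9.69 normalized counts). The exact 95% Poisson interval of the lowest count was 2.20 to 13.1 reads, which covers counting error only, and the groups overlapped. The log2 fold change of 0.07 had a 95% interval of -0.64 to 0.78, too wide to tell a fall like that of miR-222-3p from no change (adjusted p = 0.887 from limma).

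**Figure D1:**
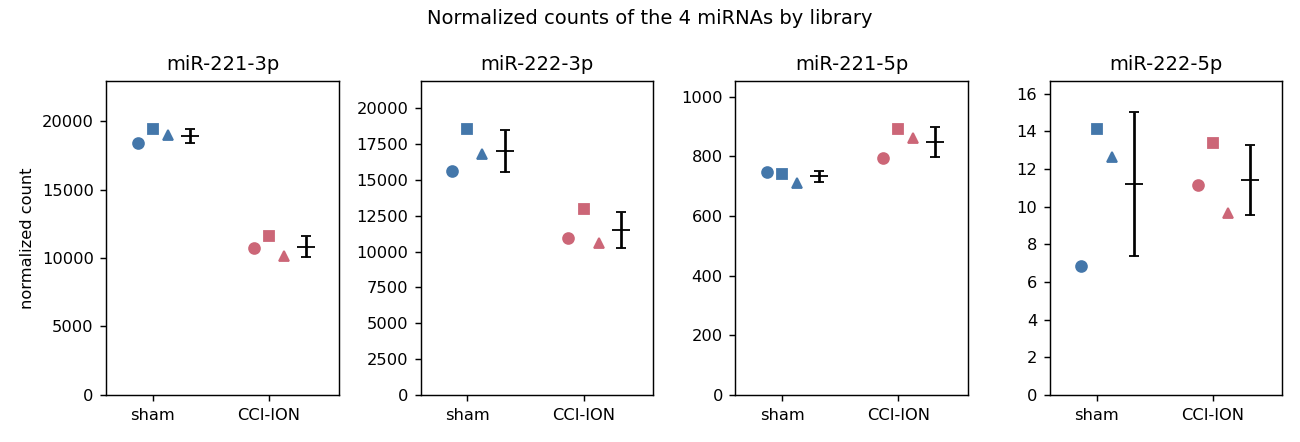
Normalized counts (y axis, linear from 0) of the 4 miRNAs in sham and CCI-ION libraries, with circles, squares and triangles for replicates 1, 2 and 3 and black bars for the mean ± SD (n = 3). Both 3p strands sit lower in every CCI-ION library, miR-221-5p sits slightly higher, and miR-222-5p overlaps between groups.

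Levels of the members were set side by side as reads of each strand, which are not divided by length; the strands are 21 or 23 bases long. miR-221-3p ranked 56 or 57 of all miRNAs in the sham libraries and 71 to 83 in the CCI-ION libraries, and miR-222-3p ranked 57 to 61 and 66 to 80. miR-221-5p ranked 220 to 240 and miR-222-5p 463 to 515 over all libraries. In the 3 sham libraries the order was miR-221-3p, miR-222-3p, miR-221-5p, miR-222-5p, and in the 3 CCI-ION libraries miR-222-3p stood first and miR-221-3p second. The gap between the means of both 3p strands was smaller than either SD in CCI-ION rats and larger than either in sham rats. All 4 members took 0.306% ± 0.0345 of the sham reads and 0.222% ± 0.0181 of the CCI-ION reads (SD, n = 3 each).

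The arms of a hairpin are compared within a library, so scaling enters their log2 ratio only through the pseudocount of 1. The other scalings left the change of the miR-221 ratio at 1.02 and that of the miR-222 ratio between 0.62 and 0.65. In the miR-221 hairpin the 5p arm made up 3.91%, 3.67% and 3.62% of the reads of both arms in the sham libraries, and 6.89%, 7.12% and 7.83% in the CCI-ION libraries. The exact binomial 95% intervals reached at most 4.22% in the sham libraries and began at 6.45% or above in the CCI-ION libraries, so the groups were separated by more than counting error. For each read of the 5p strand there were 25.8 ± 1.1 of the 3p strand in sham rats, against 12.8 ± 0.90 after CCI-ION (SD, n = 3 each). The log2 ratio of 5p to 3p rose by 1.02 (standard error 0.13, 95% interval 0.71 to 1.32, adjusted p = 0.00744 from limma over 156 hairpins with both arms above 0 in all libraries). Of these hairpins 18.6% passed the threshold, 14 with a rise and 15 with a fall of the 5p arm, and in 44.2% the groups did not overlap. The miR-221 hairpin ranked 3 by p and 15 by the size of the change. Without sham replicate 2 its change was 1.00 and missed the threshold (adjusted p = 0.0529 from limma), and this left 2 hairpins past it in all.

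In the miR-222 hairpin the 5p arm was far rarer, at 0.0438%, 0.0761% and 0.0752% of the reads in the sham libraries and 0.102%, 0.103% and 0.0915% in the CCI-ION libraries. The ranges did not overlap, but the exact binomial intervals did, since each share rests on 6 to 17 reads of the 5p arm. The log2 ratio changed by 0.64 (standard error 0.22, 95% interval 0.10 to 1.17) and missed the threshold (adjusted p = 0.0842 from limma). Without sham replicate 1 the change was 0.40. In every library the 5p share of the miR-222 hairpin was over an order of magnitude below that of the miR-221 hairpin.

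**Figure D2:**
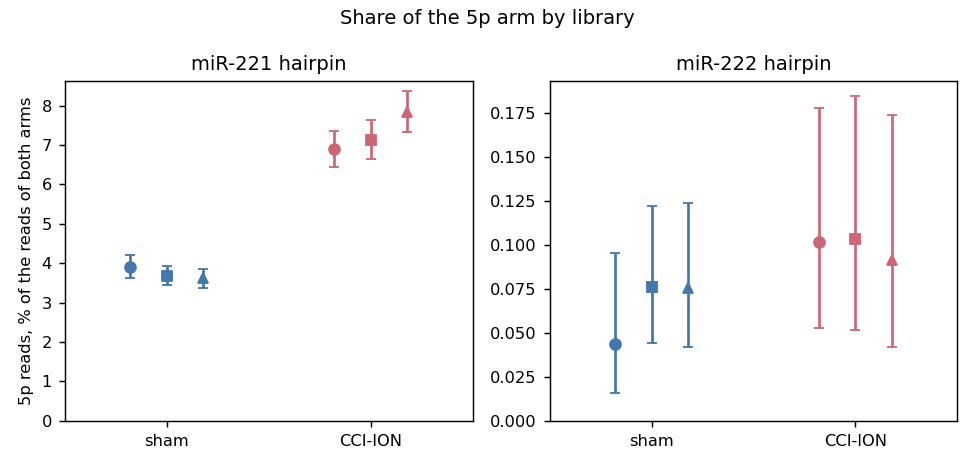
Share of the 5p arm among the reads of both arms (y axis, percent, linear from 0, scales differ) for both hairpins, by library, with exact binomial 95% intervals as bars and circles, squares and triangles for replicates 1, 2 and 3. For miR-221 the intervals of the groups lie apart, and for miR-222 they overlap.

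The change of the miR-221 ratio was made up of a fall of the 3p strand by 0.81 on the log2 scale and a difference of 0.21 in the 5p strand. This split depends on the scaling. With total counts the 3p strand was at -0.60 and the 5p strand at 0.41, and with upper quartiles at -1.05 and -0.04. Log2 fold changes of the arms had opposite signs in 61 of the 156 hairpins (39.1%), miR-221 and miR-222 among them, although with upper-quartile scaling both arms of both these hairpins were lower. The median change of the 5p to 3p ratio over all hairpins was -0.02, and the median of its absolute size 0.43. Counting miR-221 and miR-222, 42 hairpins had under 10% of their reads in the 5p arm. In these the ratio was higher in CCI-ION rats for 19 and lower for 23, 4 passed as a rise and 4 as a fall, and 1 had a larger rise than miR-221.

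**Figure D3:**
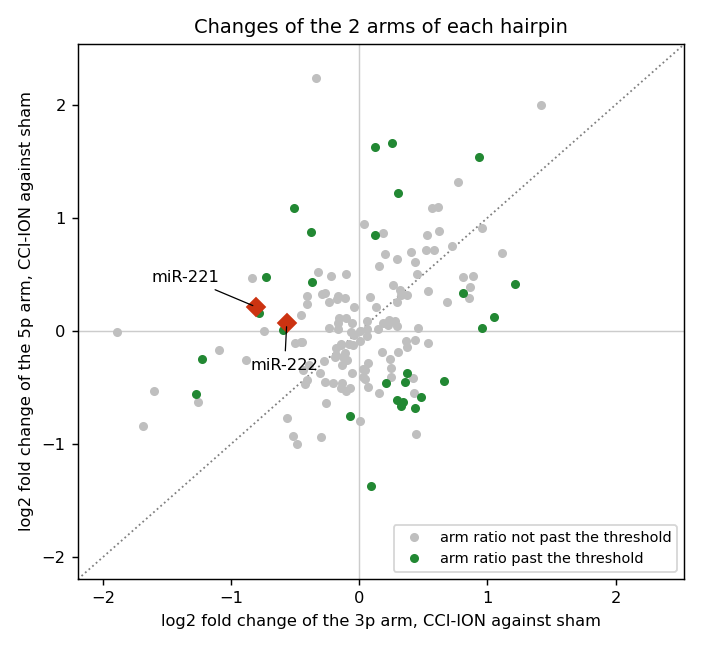
Log2 fold change of the 5p arm (y axis) against that of the 3p arm (x axis), CCI-ION against sham, for 156 hairpins, with green points for hairpins whose arm ratio passed the threshold (adjusted p under 0.05) and the dotted line where both arms change alike. The red diamonds are miR-221, which passed, and miR-222, which did not, and both lie above the line on the side where the 3p arm is lower.

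Since miR-221-3p and miR-222-3p have the same seed, their sum counts the reads that carry it among the 512 listed miRNAs with a sequence. The sum was 34021, 37990 and 35750 normalized counts in the sham libraries, against 21696, 24600 and 20726 in the CCI-ION libraries. All CCI-ION libraries lay below all sham libraries, with a ratio of the group means of 0.622 (exact permutation test, two-sided p = 0.1, the smallest that 3 libraries against 3 allow). Of the reads of both, miR-222-3p made up 47.3% ± 1.4 in sham rats, against 51.4% ± 1.1 after CCI-ION (SD, n = 3 each).

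The ratio of miR-222-3p to miR-221-3p, which come from adjacent hairpins, was 0.853, 0.955 and 0.886 in the sham libraries, against 1.02, 1.11 and 1.04 in the CCI-ION libraries. The ratio was below 1 in every sham library and above 1 in every CCI-ION library. The mean log2 ratio was higher in CCI-ION rats by 0.24, against SDs of 0.084 in sham and 0.066 in CCI-ION libraries (exact permutation test, two-sided p = 0.1, the smallest that 3 libraries against 3 allow). Beside 16 other pairs of miRNAs from a shared cluster, the difference was below the median, since 11 pairs had a larger one, and the groups did not overlap in 11 of the 17 pairs. The absolute differences ranged from 0.058 to 1.00 with a median of 0.29. The spread between libraries was small, and only 1 pair, miR-212-3p with miR-132-3p, had a smaller pooled SD.

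**Figure D4:**
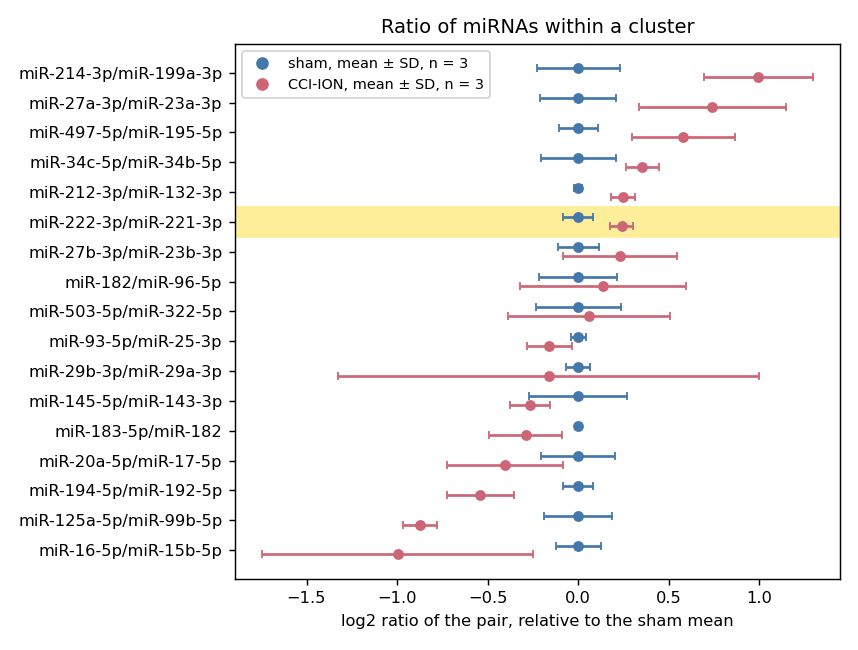
Log2 ratio of the miRNAs of 17 pairs from a shared cluster (x axis, relative to the sham mean of the pair), as mean ± SD of 3 sham and 3 CCI-ION libraries. The pair on the yellow band, miR-222-3p and miR-221-3p, differs by 0.24 between groups with little spread.

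The miRNAs whose log2 values followed the members most closely over the 6 libraries were looked up among those with a mean of at least 100 normalized counts. Values of all miRNAs share the libraries and their scaling, and the differences between groups dominate such a likeness, so Pearson's r is given as a description. For miR-221-3p these were miR-151-5p (r = 0.998), miR-107-3p (0.991), miR-466c-5p (0.990), miR-6331 (0.973) and miR-222-3p (0.969), out of 363 compared, of which 38 had r above 0.9. For miR-222-3p they were miR-139-5p (0.976), miR-151-5p (0.969), miR-221-3p (0.969), miR-466c-5p (0.966) and miR-107-3p (0.962). After subtraction of the group means, the r of miR-221-3p was 0.962 with miR-151-5p, 0.934 with miR-222-3p, 0.797 with miR-107-3p, 0.677 with miR-6331 and 0.661 with miR-466c-5p. miR-221-5p ranked 321 of 363 in its likeness to miR-221-3p (r = -0.859), and after subtraction of the group means the r was 0.289. Closest to miR-221-5p were miR-200a-5p (0.981), miR-151-3p (0.980), miR-182 (0.976), miR-140-3p (0.973) and miR-504 (0.967). miR-151 thus appeared with both arms, the 5p strand beside miR-221-3p and the 3p strand beside miR-221-5p. For miR-222-5p, whose few reads limit any likeness, the closest were miR-412-5p (0.923), miR-490-5p (0.898), miR-758-3p (0.837), miR-344b-5p (0.832) and miR-667-5p (0.780).

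Both guides belong to a list of miRNAs known to respond to nerve injury in sensory ganglia or nerve, of which 19 of 20 had values. Only miR-221-3p of this list passed the threshold. Calls in either direction made up only 6.85% of all miRNAs tested (limma). In lists this short, few or no calls therefore cannot set a list apart from the rest. The share of all miRNAs with an unadjusted p under 0.05 was 33.0%, against which counts of that kind have to be read. Among the 17 without the members 0 passed (limma) and 3 had an unadjusted p under 0.05, and their median log2 fold change was 0.11 against -0.01 for all miRNAs. miR-21-5p, which rises in injured nerve and ganglia, averaged 5679 normalized counts (sham) and 9290 (CCI-ION), a log2 fold change of 0.60 (limma, adjusted p = 0.334), and its groups overlapped. In 6 of the 17 without the members the groups were apart, against 40.7% of all miRNAs. Higher were miR-182 (1.21), miR-223-3p (0.95) and miR-431 (0.14), and lower were miR-132-5p (-0.38), miR-146b-5p (-0.25) and miR-1-3p (-1.03). In a list of 11 miRNAs tied to neuronal activity, which also holds both guides, again only miR-221-3p passed. Of the other 9 in it 0 passed (limma) and 5 had an unadjusted p under 0.05, with a median of -0.04. miR-132-3p, an activity-induced miRNA of neurons, stood at 13647 and 13105 normalized counts (limma, log2 fold change -0.06, adjusted p = 0.787). Groups were apart in 4 of the 9: miR-134-5p was higher (0.44), and miR-132-5p (-0.38), miR-485-5p (-0.37) and miR-138-5p (-0.45) were lower.

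Lists of miRNAs typical of cell types were set beside these values, because the cluster is made in several of them and the tissue was not sorted. In such bulk samples fewer cells of a type and less RNA per cell cannot be told apart. Over all miRNAs 6.85% passed the threshold in either direction, and in 40.7% the groups did not overlap. Counts for the lists have to be read against these shares. Of the vessel wall markers, which are both arms of miR-143 and miR-145, 2 of 4 passed as higher. Log2 fold changes were 1.11 for miR-143-3p (limma, adjusted p = 0.0334) and 0.85 for miR-145-5p (limma, adjusted p = 0.045). All 4 had positive log2 fold changes, but the groups overlapped for miR-143-5p (0.69, adjusted p = 0.195, limma) and miR-145-3p (0.12, adjusted p = 0.557, limma). The list summed to between 35488 and 51879 normalized counts in sham libraries and between 82454 and 97636 in CCI-ION libraries, most of it miR-143-3p. The endothelial strands miR-126a-3p and miR-126a-5p, of which 0 of 2 passed (limma; 1 had an unadjusted p under 0.05), summed to between 45442 and 54854 and to between 63096 and 70810. The endothelial sum was nearly all miR-126a-3p (log2 fold change 0.44; adjusted p = 0.0877, limma), while the far rarer miR-126a-5p had a log2 fold change of -0.91 (adjusted p = 0.205, limma), and the groups were apart for each, in opposite directions.

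Sums of 3 marker lists were lower in CCI-ION libraries without overlap, but a sum follows its most abundant members, and each list held members with positive fold changes. The neuronal list had 1 of 6 past the threshold, miR-124-3p (limma, log2 fold change -0.78, adjusted p = 0.0435). The sums of the list were 661623 to 886730 in sham and 528983 to 631443 in CCI-ION libraries. Its most abundant member in sham libraries, miR-128-3p, averaged 491230 (sham) and 258090 (CCI-ION) normalized counts (limma, log2 fold change -0.91, adjusted p = 0.0597). In the list 4 members had negative and 2 positive log2 fold changes. The latter were miR-129-5p (0.45, with every CCI-ION library above every sham library, adjusted p = 0.0762, limma) and miR-124-5p (0.16). The oligodendrocyte list had 1 of 5, miR-338-3p (-1.27, adjusted p = 0.019 from limma), with sums of 13783 to 19985 and 10568 to 11402, and its marker miR-219a-5p was listed at 0 in 4 libraries. In this list 4 had negative log2 fold changes and 1, miR-219a-1-3p, a positive one (0.58). The pituitary and neuroendocrine list had 0 of 7 (limma; 4 had an unadjusted p under 0.05), with sums of 2117720 to 3415470 and 959645 to 1567230, most of it miR-7a-5p. Only miR-7a-5p (-1.04) and miR-7b (-0.87) had negative log2 fold changes in it, and the other 5, with miR-375-3p (0.58) and miR-200a-3p (0.94) among them, had positive ones, for a list median of 0.58. The sums overlapped between groups for immune cells and microglia, erythrocytes, choroid plexus and ependyma, and skeletal muscle, for which 0 of 7, 0 of 3, 0 of 5 and 0 of 4 passed (limma; 3, 1, 1 and 0 had an unadjusted p under 0.05). Single members of these lists still had groups apart. By log2 fold change, miR-451-5p (1.07), miR-223-3p (0.95) and miR-34c-5p (0.57) were higher, and miR-150-5p (-0.45), miR-342-3p (-0.41) and miR-1-3p (-1.03) were lower. The part of any cell type in the values of miR-221 and miR-222 was not tested.

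Another scaling moved all miRNAs together, and the members with them. Over all miRNAs the median log2 fold change was -0.01 as reported, 0.17 with total counts and -0.26 with upper quartiles. Relative to this median, miR-221-3p stood at -0.79, -0.77 and -0.80 under these 3 scalings, miR-222-3p at -0.55, -0.53 and -0.56, and miR-221-5p at 0.23, 0.25 and 0.22. A scaling shifts the log2 values of all miRNAs in a library alike, apart from the pseudocount. The distance between the guide strands and the 5p strand of miR-221 was therefore bound to be nearly the same under each, which is no added support.

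**Figure D5:**
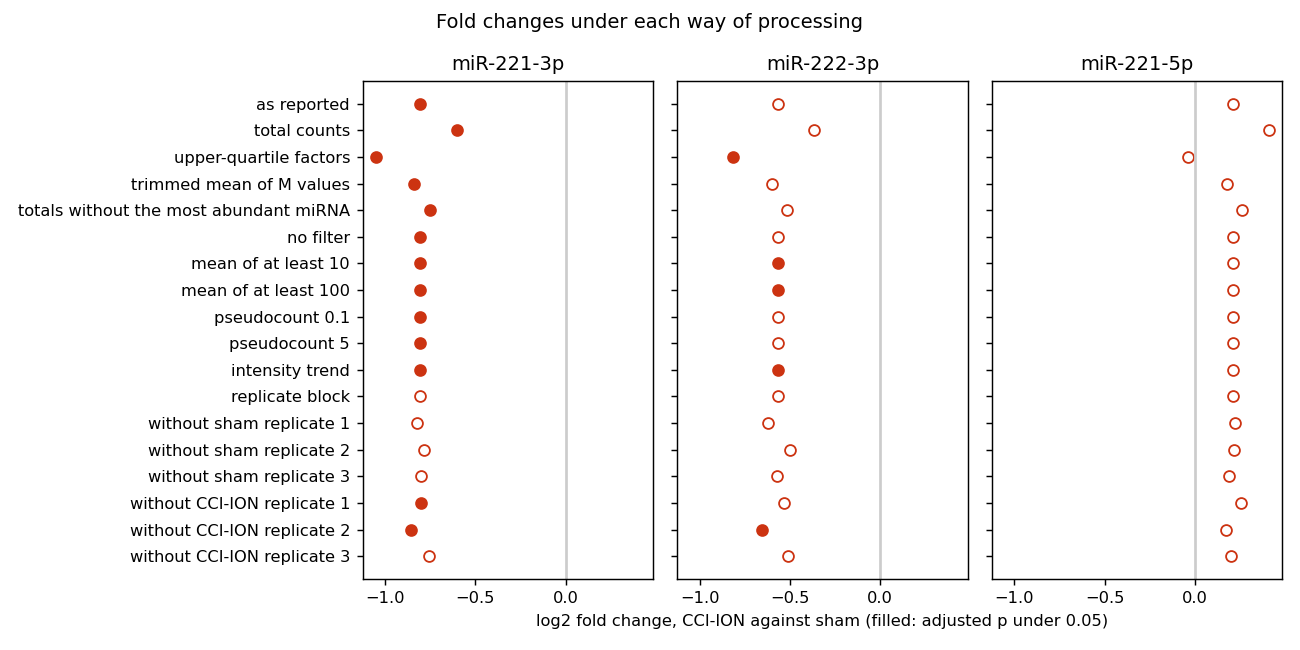
Log2 fold changes (x axis, CCI-ION against sham) of 3 members as reported and under 17 other ways of processing (rows), with filled points for an adjusted p under 0.05 in limma. miR-221-3p and miR-222-3p stay below 0 in each row, and miR-221-5p lies above 0 in each but that of the upper-quartile factors. Rows of the filters, intensity trend and replicate block repeat the reported fold change by construction and can differ only in p.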

How the data were processed

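RNA of the ARC was sequenced for miRNAs in 3 sham and 3 CCI-ION libraries, grouped by the sample labels. The deposited values are a signal for every mature miRNA and library, called normalized count here. The submitters' processing notes name Bowtie 1.1.1, cutadapt 1.14 and rn6, while the miRNA annotation, the counting and the normalization are not given in the sources used here. Within a library every value was a whole multiple of 1 step (tolerance 0.01), the smallest being worth 5 steps, so reads were worked out as value over step, and miRNAs under 5 reads are listed at 0. Size factors (0.821 to 1.20) computed from those reads by the median of ratios were equal to 1 over the step.

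limma 3.58.1 in R 4.3.3 was run, two-sided, on log2(normalized count + 1) for 555 miRNAs (mean of 1 or more), and on the log2 ratio of 5p to 3p for 156 hairpins, with Benjamini-Hochberg adjustment and a threshold of 0.05. Single values were compared by exact permutation tests. The limma fits were also run on simulated data, and the outcome is not given here. Alternatives were 4 scalings, 3 filters, 2 pseudocounts, an intensity trend, a replicate block and leaving out each library. Libraries of a group differed by more than sampling noise. miRNAs named were the 4 members, the 5 most alike for each, and fixed lists and cluster pairs. From the lists, those that passed the threshold and the other miRNAs named were chosen after their values were seen. Members and lists were chosen with earlier results of these data known, so no list is independent support. Sequences of 512 of the 562 miRNAs were found by name in RefSeq.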

Additional observations from a re-analysis of the deposited data

How the results depend on the processing

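The log2 fold changes of miR-221-3p and miR-222-3p stayed below 0, and the change of the miR-221 arm ratio stayed above 0, under all 17 alternatives. The filters, intensity trend and replicate block cannot change these estimates, and scaling enters ratios within a library only through the pseudocount. The cause of each change given here was not tested unless the alternative itself shows it. Calls over all miRNAs (38 as reported) were 94 with upper quartiles (10 higher, 84 lower), 88 with the intensity trend, 63 under a minimum mean of 10 and 101 under a minimum mean of 100. With total counts 42 of 51 calls were higher, with totals lacking the top miRNA 30 of 49, and with the trimmed mean of M values, computed with code written for this purpose, 10 of 28. Leaving out a library gave 7 to 43 calls over all miRNAs and 2 to 42 over hairpins (29 as reported), with 9, 2 and 10 hairpins without sham replicates 1, 2 and 3. Each of these fits rests on 5 libraries.

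miR-221-3p ranged from -0.86 to -0.76 with a library left out (adjusted p 0.0170 to 0.0924, limma) and from -1.05 to -0.60 otherwise. miR-222-3p passed with the intensity trend, a minimum mean of 10 and one of 100 (-0.57 in each, adjusted p 0.0240, 0.0451 and 0.0255, limma). It also passed with upper quartiles (-0.81, adjusted p 0.0243, limma), and ranged from -0.66 to -0.50 with a library left out. With total counts it had its smallest fall, -0.36 (unadjusted p = 0.0648, adjusted p = 0.163, limma). miR-221-5p was reversed to -0.036 with upper quartiles and lay between 0.18 and 0.26 with a library left out. With total counts it was highest, at 0.41 (unadjusted p = 0.0141, adjusted p = 0.0784, limma). miR-222-5p was reversed to -0.16 with upper quartiles and ranged from -0.22 to 0.25 with a library left out, and it was below the filter of 100. The change of the miR-221 log2 arm ratio ranged from 0.96 to 1.06 with a library left out (adjusted p 0.00606 to 0.0529, limma). That of the miR-222 arm ratio passed with a pseudocount of 5 (0.61, adjusted p 0.0462, limma) and lay between 0.40 and 0.75 with a library left out. The difference between groups in the log2 ratio of miR-222-3p to miR-221-3p was between 0.20 and 0.28 in all.

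With the replicate block 3 miRNAs passed (1 higher, 2 lower), and miR-221-3p, at -0.81, did not (adjusted p = 0.0937 from limma), whereas the arm ratio of miR-221 did (adjusted p = 0.0287 from limma). Same-numbered libraries had correlations of their deviations of -0.03, 0.19 and -0.01, which gives no ground to treat them as pairs. The count tests listed among the alternatives were not run, although whole reads could be worked out. Depth limits miR-222-5p most, with at most 17 reads in a library.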
